A study of Mus musculus with 35 samples.

Results

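The podocytes of mice carrying a mutant Lmx1b allele held less of 8 long noncoding RNAs (lncRNAs) than control podocytes. The 8 are Gm45274, AA672651, Gm15551, Gm28707, 4933407E24Rik, 2810433D01Rik, Gm47805 and Gm13749. They were picked by their expression values, as lncRNA genes that were lower in both knock-in lines than in the controls. They are 8 of 33292 genes in the table and 8 of the 11139 that the GENCODE vM39 annotation (genome build GRCm39) calls lncRNA genes, and all 8 were found in the table by symbol and Ensembl identifier. Since the choice used the difference between knock-in and control mice, that difference is given for DMSO-treated mice as values. Where a test of it is given, nothing is read from that test.

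The study asked how single amino acid changes in either LIM domain of Lmx1b alter gene expression in podocytes, and whether bortezomib, an inhibitor of the proteasome, affects this. RNA was sequenced from podocytes of 35 mice. WT mice were Lmx1b+/lox, H77L mice Lmx1bH77L/lox with a mutation in the first LIM domain (LIM-A), and C118F mice Lmx1bC118F/lox with a mutation in the second (LIM-B). All groups, WT included, carried 1 floxed Lmx1b allele, a transgene for rtTA in podocytes, tetO::Cre and the mT/mG reporter. In these mice doxycycline switches on Cre in podocytes, and Cre deletes the homeodomain exons of the floxed allele and turns the podocytes green. The WT podocytes therefore kept 1 normal allele, whereas the knock-in podocytes were left with the mutant allele alone. Mice were 7 to 10 weeks old, drank doxycycline at 2 mg/ml for 7 days, and were injected every other day with bortezomib at 0.3 µg/g or with its solvent DMSO, before green cells were sorted from the kidney. Each genotype and treatment had 6 mice, except bortezomib-treated C118F with 5.

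LMX1B is a transcription factor with LIM domains, which bind cofactors such as LDB1, and a homeodomain, which binds AT-rich DNA. In podocytes, the cells that form the outer layer of the kidney filter, it is needed to keep the cells differentiated, and mutations in the human gene cause nail-patella syndrome. LncRNAs are transcribed, spliced and often polyadenylated like messenger RNAs but encode no known protein, and many start next to, inside or opposite a coding gene whose promoter or enhancers they may share. For most of the 8 no function is established, so they are described here by their position and level.

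The RefSeq promoter table (build GRCm38.p6) held 4 of the 8 genes, and each 300-base window matched GRCm39 exactly and at 1 place. Shown are these windows, 5′ to 3′ on the strand of the lncRNA. Lower case marks the 250 bases before the RefSeq start and capitals the 50 bases from the start on. The window of 2810433D01Rik lies on the minus strand at chr11:102515193-102515492, that of Gm15551 on the minus strand at chr3:126462543-126462842, that of 4933407E24Rik on the plus strand at chr4:124462722-124463021 and that of Gm13749 on the plus strand at chr1:64003636-64003935.
2810433D01Rik: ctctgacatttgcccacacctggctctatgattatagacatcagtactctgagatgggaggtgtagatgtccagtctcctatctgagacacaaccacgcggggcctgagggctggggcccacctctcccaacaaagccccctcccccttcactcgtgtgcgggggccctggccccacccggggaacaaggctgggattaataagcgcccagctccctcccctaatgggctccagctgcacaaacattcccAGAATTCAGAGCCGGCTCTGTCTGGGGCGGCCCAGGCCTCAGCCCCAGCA
Gm15551: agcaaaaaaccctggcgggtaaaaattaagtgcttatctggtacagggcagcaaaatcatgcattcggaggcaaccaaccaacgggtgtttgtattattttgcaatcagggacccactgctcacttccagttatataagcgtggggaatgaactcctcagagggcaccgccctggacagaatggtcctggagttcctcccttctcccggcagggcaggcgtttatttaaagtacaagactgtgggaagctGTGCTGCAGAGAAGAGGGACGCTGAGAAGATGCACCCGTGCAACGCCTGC
4933407E24Rik: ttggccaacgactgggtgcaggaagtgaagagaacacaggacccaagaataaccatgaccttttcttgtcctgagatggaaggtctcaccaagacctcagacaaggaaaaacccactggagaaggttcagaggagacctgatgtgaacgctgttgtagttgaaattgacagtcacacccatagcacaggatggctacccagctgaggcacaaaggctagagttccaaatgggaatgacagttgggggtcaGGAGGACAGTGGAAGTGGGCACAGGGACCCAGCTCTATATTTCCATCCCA
Gm13749: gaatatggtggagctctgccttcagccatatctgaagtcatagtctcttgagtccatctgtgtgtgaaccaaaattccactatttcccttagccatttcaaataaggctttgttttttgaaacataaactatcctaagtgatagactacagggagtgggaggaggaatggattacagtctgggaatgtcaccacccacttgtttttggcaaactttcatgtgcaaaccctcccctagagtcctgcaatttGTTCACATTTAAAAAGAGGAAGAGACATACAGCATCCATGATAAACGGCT

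None of the 4 windows held TAATTA, an AT-rich core that LIM homeodomain proteins can bind and that reads the same on both strands. It was present in 1738 of the 32851 windows of the table, or 5.29%. The GC content was 61.0% for 2810433D01Rik, 51.7% for Gm15551, 50.7% for 4933407E24Rik and 41.7% for Gm13749, beside a median of 52.7% over all windows. The GENCODE start of Gm13749 is the same base as the RefSeq start, whereas those of 2810433D01Rik, Gm15551 and 4933407E24Rik lie 25, 192 and 466 bases further upstream, so for the last pair part or all of the sequence before the GENCODE start is outside the window. Gm45274, AA672651, Gm28707 and Gm47805 had no entry.

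The deposited values are in TPM, which the authors made by correcting reads for gene length and setting the total of each mouse to 1000000. Reads recovered from the steps of these values numbered between 5265099 and 24137538 per mouse, with a median of 19155174. The lowest total belonged to C118F bortezomib replicate 2, and the next lowest, 14034144, to WT DMSO replicate 2. For most of the 8 lncRNAs few reads lay behind a value. 2810433D01Rik had 4214 reads over the 6 WT DMSO mice, Gm45274 942, Gm28707 425, 4933407E24Rik 205, Gm13749 201, Gm15551 120, AA672651 89 and Gm47805 68. At this depth a value of 0 in a knock-in mouse can be a level below what was detectable.

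Lmx1b itself was measured first. Its reads sum both alleles and all exons, and a missense allele still makes a transcript, so its level does not check the genotype labels. In WT mice under DMSO the lowest, median and highest levels were 44.8, 71.5 and 89.7 TPM, in H77L mice 89.9, 120 and 139 TPM, and in C118F mice 37.4, 104 and 185 TPM. Every H77L mouse was above every WT mouse, by 0.78 on the log2(TPM + 1) scale (SE 0.15, adjusted p = 0.000791, limma), and the C118F mice spanned the WT range (0.41, adjusted p = 0.311). Under bortezomib the mean was 88.6 ± 24.0 TPM (SD, n = 6) in WT, 105 ± 28.1 (n = 6) in H77L and 123 ± 33.2 (n = 5) in C118F, and neither line passed the test against WT (adjusted p = 0.353 and 0.135). The 8 lncRNAs were thus low in groups whose mean Lmx1b RNA level was above that of WT. RNA does not give the amount of protein. In HeLa cells the paper found shorter half-lives for both mutant proteins than for the wild-type protein, and proteasome inhibitors raised their amounts. In kidney sections it detected Lmx1b protein in podocytes of knock-in mice given bortezomib, but not of those given DMSO.

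The cells were checked against markers of podocytes and of other kidney cells. All 12 podocyte markers had a mean above 1 TPM in every group, and their summed level was 30900 ± 5170 TPM in WT DMSO (SD, n = 6), 8864 ± 2000 in H77L DMSO and 8360 ± 2960 in C118F DMSO. Under bortezomib the sums were 27870 ± 2960 in WT, 11980 ± 1570 in H77L and 10580 ± 1400 TPM in C118F (n = 5). Of the 12, 8 were lower in each of the 4 comparisons with WT (limma, adjusted p under 0.05), beside 22.4%, 16.6%, 11% and 12.4% of all genes tested. Of the remaining 4, Kirrel1 and Cd2ap, both of the slit diaphragm complex, were higher in H77L DMSO (0.77 and 0.30, adjusted p = 0.00226 and 0.0152). Synpo, which encodes the actin-associated protein synaptopodin, had a mean of 2507 TPM in WT, 617.7 in H77L and 482.8 in C118F under DMSO. Most podocyte markers were therefore lower in the same libraries as the lncRNAs, and in bulk RNA fewer cells of a type and less of an RNA per cell cannot be told apart.

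Of the other cell types, the mesangial list of 8 genes had a summed level of 86.2 TPM in WT DMSO, 792.5 in H77L DMSO and 1182 in C118F DMSO. Des, the intermediate filament protein desmin, had means of 34.8, 464.7 and 578.1 TPM, and the growth factor receptor gene Pdgfrb 14.4, 247.1 and 153.6 TPM. C118F DMSO replicate 1 summed to 2822 TPM, of which 2166 were Ren1, the renin gene, and without it the C118F mean was 853.6 TPM. The mesangial markers Itga8 and Gata3 stayed at means of at most 1.08 TPM in all 6 groups. The 6 parietal cell markers summed to 66.8, 200.5 and 161.8 TPM, led by Cldn1, a tight junction protein, while the keratin genes Krt18 (10.2, 1.46 and 0.206 TPM) and Krt8 (5.02, 1.08 and 0.261 TPM) had lower means in the knock-in lines. The 8 endothelial markers summed to 30.3, 22.0 and 49.5 TPM, the 8 tubule markers to 206.5, 53.0 and 35.9 TPM and the 8 leukocyte markers to 88.5, 25.8 and 33.1 TPM. Within these lists Cubn, the tubule receptor cubilin, averaged 0.358, 3.35 and 2.497 TPM (adjusted p = 0.00135 in H77L), and Csf1r, a receptor of macrophages, 4.17, 11.6 and 8.21 TPM (adjusted p = 0.00157 and 0.0206). Cubn was tested there through the H77L mice alone, the group where it is high. Lyz2, also of the leukocyte list, had lower means in the knock-in lines, at 61.9, 3.05 and 1.24 TPM (limma, adjusted p = 0.0614 in H77L and 0.0361 in C118F). Single mice carried several of these means. Without the highest mouse of each group, an alternative chosen after the data were seen, the means were 22.6, 19.8 and 25.9 TPM for endothelial markers, 48.1, 10.4 and 19.4 TPM for tubule markers and 31.4, 18.7 and 18.1 TPM for leukocyte markers. On bortezomib, with all mice kept, the mesangial sums in WT, H77L and C118F were 74.2, 554.2 and 786.8 TPM. The parietal sums were 54.8, 130.9 and 164.6 TPM, the endothelial 29.0, 25.6 and 17.9 TPM. The tubule sums were 95.6, 24.6 and 16.6 TPM, the leukocyte 10.2, 16.0 and 16.4 TPM. There Agtr1a, of the mesangial list, was lower in H77L and C118F (limma, adjusted p = 0.0402 and 0.00233), whereas Des and Pdgfrb were higher. The part of these lists in the levels of the lncRNAs was not tested.

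Gm45274 (ENSMUSG00000109965, chr8:15096210-15107204, plus strand) was furthest below WT on the log2(TPM + 1) scale in both lines. In WT mice under DMSO its lowest, median and highest levels were 25.4, 44.8 and 55.7 TPM. In H77L mice they were 0, 0.466 and 4.21 TPM, with 3 mice at 0, and in C118F mice 0, 0.699 and 5.27 TPM. Under bortezomib the WT mice stood at 25.0, 38.8 and 58.1 TPM, the H77L mice at 0.638, 2.09 and 5.42 TPM, and the 5 C118F mice at 1.05, 1.28, 2.83, 6.08 and 7.02 TPM. The knock-in and WT mice did not overlap under either treatment, and the knock-in mean was 2.91% of the WT mean in H77L DMSO, 3.21% in C118F DMSO, 6.60% in H77L bortezomib and 9.53% in C118F bortezomib.

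2810433D01Rik (ENSMUSG00000086283, chr11:102507430-102515267, minus strand) was the most abundant of the 8 in TPM, a per-length scale, and the most precisely measured. Under DMSO it stood at 87.7, 105 and 134 TPM in WT, at 15.7, 22.7 and 31.5 TPM in H77L and at 13.0, 19.4 and 36.9 TPM in C118F. Under bortezomib it stood at 79.2, 87.2 and 116 TPM in WT, at 26.1, 39.9 and 49.9 TPM in H77L, and at 14.6, 15.1, 21.4, 22.7 and 26.6 TPM in the C118F mice. All knock-in mice were below all WT mice, and among bortezomib-treated mice all H77L mice but the lowest were above the highest C118F mouse. The mean was 21.5% and 21.3% of WT in H77L and C118F under DMSO, and 42.7% and 21.6% under bortezomib.

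Gm28707 (ENSMUSG00000100071, chr13:42202037-42204051, plus strand) varied widely between WT mice, at 3.95, 21.9 and 43.4 TPM under DMSO. The H77L mice stood at 0.915, 2.74 and 5.26 TPM and the C118F mice at 0, 2.77 and 12.2 TPM. With bortezomib the WT mice stood at 3.05, 14.4 and 30.8 TPM, the H77L mice at 0, 3.29 and 5.54 TPM, and the C118F mice at 0, 0, 0.561, 1.49 and 6.23 TPM. The lowest WT mouse lay inside the knock-in range in all 4 comparisons, so the groups overlapped throughout. Its exons share 159 bases with Gm61288, an lncRNA gene on the opposite strand that was not analysed here, and without strand reads from the shared bases cannot be told apart. The mean was between 10.9% and 19.4% of WT in the 4 knock-in groups.

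4933407E24Rik (ENSMUSG00000073759, chr4:124462506-124469346, plus strand) stood under DMSO at 3.77, 6.51 and 9.86 TPM in WT, 0, 0.191 and 1.21 TPM in H77L, and 0, 0.420 and 1.23 TPM in C118F, with no overlap. Under bortezomib it stood at 2.89, 5.24 and 9.37 TPM in WT, 0.729, 0.805 and 3.02 TPM in H77L, and 0, 0.683, 0.812, 1.13 and 2.82 TPM in C118F. The highest H77L mouse on bortezomib then passed the lowest WT mouse, while the C118F mice stayed below. As a share of WT the H77L mean was 4.92% under DMSO and 22.2% under bortezomib, and the C118F mean 8.01% and 18.0%, from 10 to 40 reads over a knock-in group.

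Gm15551 (ENSMUSG00000086679, chr3:126460978-126462784, minus strand) stood under DMSO at 3.23, 6.37 and 12.8 TPM in WT. It was at 0 in 4 of the 6 H77L mice, with a highest value of 1.27 TPM, and at 0 in 5 of the 6 C118F mice, with the sixth at 4.06 TPM. On bortezomib the WT mice stood at 1.64, 4.42 and 12.3 TPM, the H77L mice at 0, 0.181 and 2.18 TPM, and the C118F mice at 0, 0, 0, 0.878 and 1.56 TPM. H77L and WT did not overlap under DMSO, nor C118F and WT under bortezomib, and 1 mouse made the overlap in C118F DMSO.

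AA672651 (ENSMUSG00000084895, chr8:86065972-86066901, plus strand) had 89 reads over the WT DMSO mice and none in any H77L or C118F mouse under DMSO. Its WT levels were 3.14, 4.30 and 15.0 TPM. Against the level that 3 reads over the group would give, the mean was at least 33.7-fold lower in H77L and at least 32.1-fold lower in C118F. With bortezomib the WT mice stood at 0.649, 2.82 and 11.5 TPM and all H77L mice at 0, at least 19.8-fold lower by the same floor. It was at 0 in 4 of the 5 C118F mice, and the remaining mouse, replicate 2 with the fewest reads of all 35 libraries, held 2.79 TPM from 2 reads. These floors cover counting error only, since reads amplified by PCR are not independent molecules.

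Gm47805 (ENSMUSG00000113730, chr13:44775658-44778693, plus strand) stood under DMSO at 1.31, 3.84 and 10.9 TPM in WT, at 0 in 5 of 6 H77L mice with the sixth at 1.81 TPM, and at 0 in all C118F mice, at least 22.4-fold lower by that floor. On bortezomib it stood at 0.400, 1.70 and 5.32 TPM in WT, at 0 in 4 of 6 H77L mice with a highest value of 2.17 TPM, and at 0, 0, 0.753, 0.758 and 1.07 TPM in C118F. Its groups were apart in C118F DMSO and overlapped in the other 3 comparisons.

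Gm13749 (ENSMUSG00000044689, chr1:64003886-64008919, plus strand) stood at 1.71, 2.97 and 9.66 TPM in WT under DMSO, at 0, 0.443 and 3.16 TPM in H77L, and at 0 in 5 of 6 C118F mice with the sixth at 1.10 TPM. Under bortezomib the WT mice themselves were low, at 0, 1.14 and 1.47 TPM. The H77L mice stood at 0, 0 and 1.10 TPM and the C118F mice at 0, 0, 0.219, 0.477 and 0.549 TPM. Gm13749 was the only 1 of the 8 whose highest WT mouse on bortezomib was below the lowest WT mouse on DMSO.

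**Figure D1:**
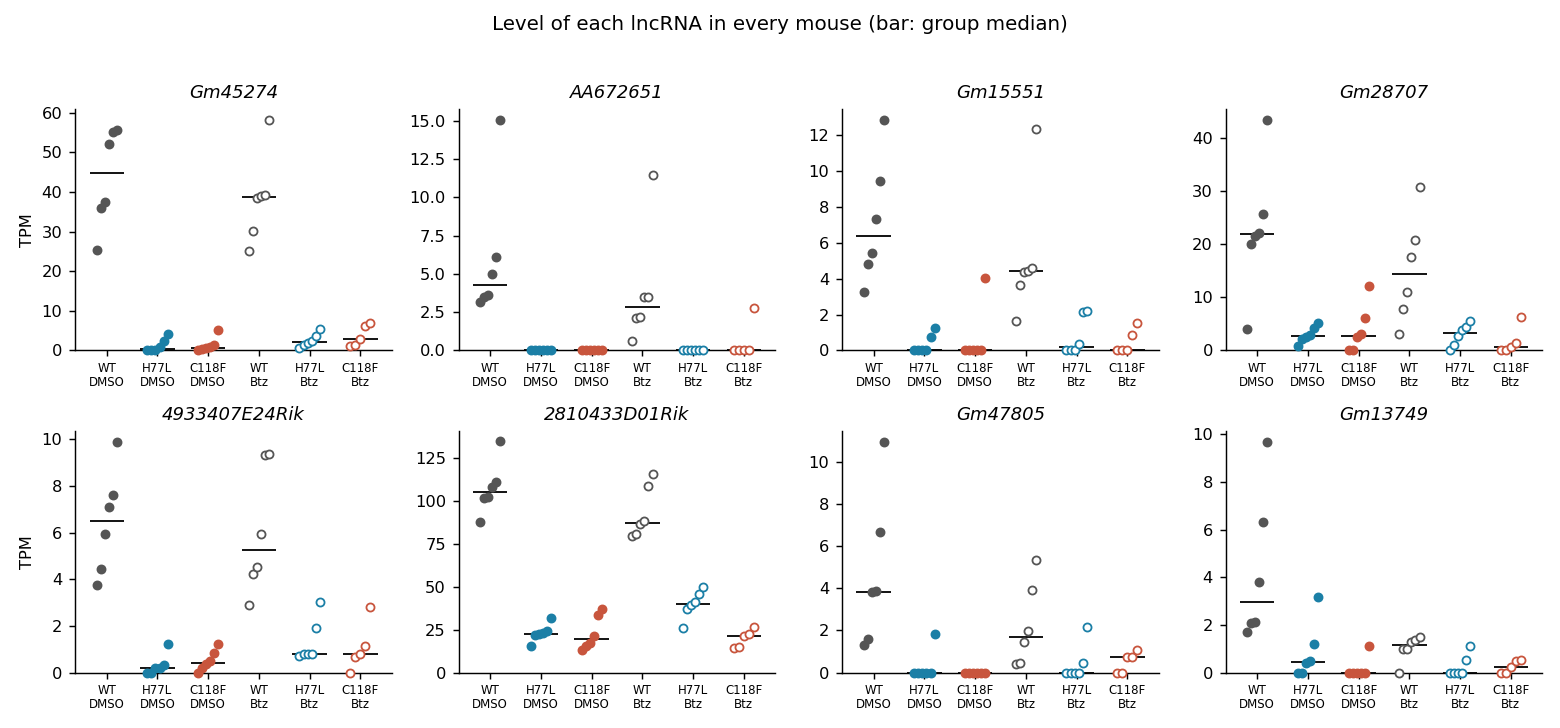
Level of each of the 8 lncRNAs in TPM (vertical axis, linear, own scale per panel) in each mouse by genotype, with filled points for DMSO, open points for bortezomib, mice sorted by level within a group, and a bar at each group's median. Gm45274 and 2810433D01Rik show WT mice apart from both lines under both treatments, whereas the WT mice of Gm28707 spread down into the knock-in range.

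Across the whole table, values were tested on log2(TPM + 1) with limma, for genes that exceeded 1 TPM in all mice of 1 or more of the compared groups. All 8 lncRNAs passed this filter under DMSO through their WT mice, 2810433D01Rik through the knock-in mice as well, and a gene that passes only through the group where it is high has to differ. In H77L mice under DMSO the fitted log2 differences from WT were −4.57 ± 0.39 (SE) for Gm45274, −2.64 ± 0.28 for AA672651, −2.59 ± 0.30 for Gm15551, −2.50 ± 0.25 for 4933407E24Rik, −2.43 ± 0.42 for Gm28707, −2.18 ± 0.14 for 2810433D01Rik, −2.03 ± 0.39 for Gm47805 and −1.504 ± 0.40 for Gm13749. These differences understate the change of low genes, because 1 is added to each value.

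In C118F mice under DMSO the same differences were −4.45 ± 0.37 for Gm45274, −2.64 ± 0.29 for AA672651, −2.60 ± 0.63 for Gm28707, −2.53 ± 0.41 for Gm15551, −2.29 ± 0.25 for 4933407E24Rik, −2.28 ± 0.34 for Gm47805, −2.27 ± 0.22 for 2810433D01Rik and −2.03 ± 0.34 for Gm13749. The order of the 8 was led by Gm45274 in both lines, and the differences of the others lay between −1.504 and −2.64. Of all genes tested, 22.4% were lower at an adjusted p under 0.05 in H77L and 16.6% in C118F (22.4% and 13.7% higher), and 10.1% and 7.18% had every knock-in mouse below every WT mouse. Of the 8 lncRNAs, 5 in H77L and 6 in C118F were apart in that way. Nothing is read from these counts, since the same difference chose the genes.

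The study also set a stricter rule, an adjusted p under 0.001 with an absolute log2 fold change above 2, and 0.547% of genes in H77L and 0.633% in C118F were lower by it. The study put these limits on shrunken fold changes from the count-based test DESeq2. Here they are put on limma differences of log2(TPM + 1), which are smaller for low genes. The mean of Gm13749, for example, was 4.92-fold lower in H77L DMSO than in WT. Among the 8, Gm13749 in H77L, at −1.504, was short of the fold limit, Gm28707 in C118F, at −2.60 with the largest SE, was past it but not past the limit on the adjusted p, and Gm47805 in H77L and Gm13749 in C118F, both at −2.03, were nearest to it on the far side. In both lines at once, 8 of the 506 lncRNA genes tested in both were lower by this rule (1.58%), namely 6 of the chosen 8, Gm56830 and Gm50022. Gm56830 averaged 29.9 TPM in WT DMSO, 5.02 in H77L and 4.49 in C118F, and Gm50022 4.96, 0.0538 and 0 TPM. Of these additional genes, 1 was left without any 1 of C118F DMSO replicates 2, 3 and 5 or WT DMSO replicates 3, 4 and 6. Higher in both lines by this rule were 4 of the 506 lncRNA genes (0.791%). Of 10251 coding genes, 44 were lower (0.429%) and 133 higher (1.3%). Since 6 of the 8 lower lncRNA genes were picked for being lower, these shares are not set against each other. Whether a chosen gene passed this rule under DMSO also follows from the choice, and nothing is read from it.

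The mice on bortezomib gave a comparison in libraries other than those under DMSO. The rule by which the genes were picked names no treatment, so these mice may have had a part in the choice. The adjusted p of the comparisons with WT are therefore given as descriptions. On bortezomib 5 of the 8 passed the filter, and 5 of 5 were lower than in WT on bortezomib in each line, where 11% of all genes tested were lower in H77L and 12.4% in C118F. Apart from 2810433D01Rik and, in C118F, Gm45274, those that passed did so through the WT mice alone, so their number is no support and each is given by its own values. Gm45274 differed from WT by −3.57 in H77L (SE 0.28, adjusted p = 1.62e-07, limma with Benjamini-Hochberg adjustment over all genes) and by −3.25 in C118F (SE 0.34, adjusted p = 7.42e-06). 2810433D01Rik differed by −1.22 in H77L (SE 0.14, adjusted p = 1.01e-05) and by −2.18 in C118F (SE 0.16, adjusted p = 2.87e-07). Both were lower in 6 of 6 H77L and 5 of 5 C118F mice than in any WT mouse.

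For those that passed through the WT mice alone, a filter on the mean over all 35 mice, which does not look at the group, is given beside the adjusted p. With it Gm45274 in H77L had an adjusted p of 8.98e-07. 4933407E24Rik differed by −1.58 in H77L (adjusted p = 0.000564, or 0.00127 with that filter) and −1.80 in C118F (adjusted p = 0.00103, or 0.00183). Gm15551 differed by −1.82 (adjusted p = 0.00244, or 0.0049) and −1.999 (adjusted p = 0.000996, or 0.00175). Gm28707 differed by −2.003 (adjusted p = 0.00719, or 0.0133) and −2.78 (adjusted p = 0.00182, or 0.0031), and its C118F value had an adjusted p of 0.0841 when the mouse number was added to the model. AA672651, Gm47805 and Gm13749 did not pass the filter, each having at least 1 WT mouse at or below 1 TPM. Fitted without a filter, AA672651 gave adjusted p = 0.0033 in H77L and 0.0627 in C118F, Gm47805 0.132 and 0.187, and Gm13749 0.13 and 0.0984. Every knock-in mouse was below every WT mouse for 3 of the 8 in H77L and 4 in C118F on bortezomib, beside 5.3% and 6.74% of the genes that passed the filter. AA672651, 1 of the 3 in H77L, did not pass it.

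Bortezomib was next compared with DMSO within each genotype. These comparisons use the DMSO mice that chose the genes. A gene picked for low values in those mice can be higher in another set by that choice alone. In WT mice 0 of the 8 passed (limma, adjusted p under 0.05), as did 0% of the 10659 genes tested, 923 of which (8.66%) had an unadjusted p under 0.05. Gm13749 was lower on bortezomib by 1.26 on average (log2 difference −1.26, 95% interval −1.97 to −0.54), with an unadjusted p of 0.00196 and an adjusted p of 0.56.

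In H77L mice 2810433D01Rik was the only 1 of the 8 that passed the filter. It was higher on bortezomib by 0.76 (SE 0.16, 95% interval 0.41 to 1.10, adjusted p = 0.0406), where 0.416% of genes were higher and 0.74% lower, 1.16% in all. The call was close to the threshold. Leaving out each mouse in turn gave adjusted p between 0.0323 and 0.102, and the call was lost without H77L bortezomib replicate 2, 3, 4 or 6 (0.0721, 0.0908, 0.09 and 0.102) and without H77L DMSO replicate 3 or 4 (0.0575 and 0.0884). It was also lost on the recovered reads with limma voom (adjusted p = 0.0655), without the filter (0.112), with all 35 mice in 1 fit (0.0575), with a filter on the mean alone (0.0583) and without an intensity trend (0.0655). The level stayed below WT, at 42.7% of the WT mean on bortezomib.

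In C118F mice Gm45274 and 2810433D01Rik were tested, and 0 of 2 passed, as did 0% of genes (634 genes, 5.86%, had an unadjusted p under 0.05). Gm45274 was higher on bortezomib by 1.03 with a 95% interval from −0.003 to 2.05 (adjusted p = 0.813). 2810433D01Rik was at −0.12 with an interval from −0.69 to 0.46 (adjusted p = 0.935), which leaves room for a change of either sign.

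The lines were compared with each other on bortezomib, a contrast that the choice of genes did not fix. 2810433D01Rik was lower in C118F than in H77L by 0.96 (log2 difference −0.96, SE 0.18, 95% interval −1.34 to −0.57, adjusted p = 0.0224), where 0.259% of genes were lower. The call was lost without H77L bortezomib replicate 2, 4 or 6 (adjusted p = 0.0506, 0.058 and 0.0606) and without C118F bortezomib replicate 3 or 4 (0.0527 and 0.0716), without the filter (0.0953) and when the mouse number was added to the model (0.109). Without C118F bortezomib replicate 2, the shallow library, the call held. Gm45274 differed by 0.32 (adjusted p = 0.767). Under DMSO 2810433D01Rik differed between the lines by −0.09 (adjusted p = 0.971).

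Whether the response to bortezomib itself differed between genotypes was tested by the interaction of genotype and treatment, which called 0 genes in each of the 3 pairs of genotypes. It contains the DMSO values by which the lncRNAs were picked, low in the knock-in lines and high in WT, and that choice alone moves the difference from WT upwards, so its values for the lncRNAs are descriptions. At an unadjusted p under 0.05 there were 2037 genes (18.2%) for H77L minus WT, 560 (5%) for C118F minus WT and 840 (7.6%) for H77L minus C118F. For 2810433D01Rik the response of H77L exceeded that of WT by 0.96 (95% interval 0.54 to 1.39, adjusted p = 0.0814) and that of C118F by 0.87 (interval 0.21 to 1.54, adjusted p = 0.65). The former passed the threshold without WT bortezomib replicate 1 (adjusted p = 0.0356), WT DMSO replicate 5 (0.0324) or H77L bortezomib replicate 5 (0.0413). The response of C118F differed from that of WT by 0.09 (adjusted p = 1). For Gm45274 the response exceeded that of WT by 1.00 in H77L (adjusted p = 0.306) and 1.20 in C118F (adjusted p = 0.948), and for 4933407E24Rik by 0.92 in H77L (adjusted p = 0.202).

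The coding genes around the 8 lncRNAs were chosen by distance, as those within 100 kb and the nearest on each side. There were 23, of which 18 were tested. At an adjusted p under 0.05, 7 were lower and 4 higher in H77L under DMSO, 5 and 3 in C118F under DMSO, 5 and 1 in H77L on bortezomib, and 4 and 2 in C118F on bortezomib. Of all genes tested, 44.8%, 30.4%, 23.6% and 27.5% passed in either direction in the same 4 comparisons, and the neighbours called, 11, 8, 6 and 6 of 18, are to be read against those shares, and the difference was not tested. BB014433 and Myom2 beside Gm45274, Mylk3 around AA672651 and Fzd2 near 2810433D01Rik were lower in both lines under both treatments. Some neighbours passed the filter only through the group where they are high, so their calls lean on the filter. Through WT alone these were BB014433 in both H77L comparisons, Mylk3 in C118F DMSO and Kbtbd11 in all 4. Through the knock-in mice alone it was Cd83 under DMSO and in C118F bortezomib. The counts above include them.

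The Gm45274 locus held a pair of them. BB014433 starts 131 bases from Gm45274 on the opposite strand, head to head. GENCODE lists it as coding and RefSeq as an lncRNA. It stood at 37.6, 51.3 and 60.5 TPM in WT under DMSO, at 0.669, 2.33 and 5.64 TPM in H77L, and at 1.33, 2.42 and 5.57 TPM in C118F. On bortezomib it stood at 31.0, 45.4 and 59.9 TPM in WT, at 0.773, 1.35 and 4.76 TPM in H77L, and at 1.49, 1.499, 2.11, 2.36 and 8.43 TPM in C118F, with no overlap under either treatment. The differences from WT were −3.89 (SE 0.28, adjusted p = 1.03e-07) in H77L DMSO, −3.82 (SE 0.22, adjusted p = 2.27e-08) in C118F DMSO, −3.96 (SE 0.28, adjusted p = 5.62e-08) in H77L bortezomib and −3.66 (SE 0.30, adjusted p = 6.69e-07) in C118F bortezomib. The kit does not mark the strand and the strand setting of the counting is not given in the sources used here, but the exons of these 2 genes do not overlap.

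Myom2, which encodes a structural protein of the M-band of muscle, lies 67 bases from Gm45274 on the same strand. It stood at 515, 769 and 897 TPM in WT under DMSO, 182, 331 and 419 TPM in H77L and 125, 276 and 375 TPM in C118F, again with no overlap. On bortezomib its mean difference from WT was −0.93 (SE 0.10, adjusted p = 2.99e-06) in H77L and −0.89 (SE 0.15, adjusted p = 0.000468) in C118F, after −1.30 and −1.55 under DMSO (adjusted p = 7.67e-05 and 0.000139). The log2 difference of Myom2 was thus smaller than those of Gm45274 and BB014433 in each comparison, a contrast that was not tested. Kbtbd11, a BTB and Kelch domain gene 12.9 kb away, was lower under DMSO (adjusted p = 0.00333 in H77L and 0.016 in C118F) and did not pass on bortezomib (0.109 and 0.165). With the mouse number in the model neither DMSO call held (0.0522 and 0.0542), and on bortezomib it passed in H77L without an intensity trend (0.0421) and in C118F with voom (0.045). In the same region, the guanine nucleotide exchange factor gene Arhgef10 passed in none of the 4.

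AA672651 lies on the opposite strand inside Mylk3, which encodes the cardiac myosin light chain kinase, with no overlap of exons. Without strand, reads from unspliced Mylk3 RNA at its bases cannot be told apart from AA672651. Mylk3 stood at 7.00, 11.6 and 15.5 TPM in WT under DMSO, 1.66, 2.76 and 3.84 TPM in H77L and 0.417, 1.03 and 3.18 TPM in C118F. On bortezomib it stood at 7.91, 13.3 and 15.5 TPM in WT, 2.71, 3.61 and 5.89 TPM in H77L, and 1.21, 1.499, 1.84, 2.07 and 4.06 TPM in C118F. Host and lncRNA were therefore both low in the knock-in mice, with Mylk3 differing by −1.70, −2.46, −1.41 and −2.13 in the order H77L DMSO, C118F DMSO, H77L bortezomib, C118F bortezomib (adjusted p = 2.01e-05, 1.63e-05, 6.09e-05 and 9.7e-06). Mylk3 kept reads in every knock-in mouse whereas AA672651 was at 0 in all but 1.

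Its other neighbours moved in both directions. Vps35, the core subunit of the retromer complex, was higher in all 4 comparisons, from 0.26 in H77L bortezomib (adjusted p = 0.0181) to 0.56 in H77L DMSO (adjusted p = 0.00014). Orc6, a subunit of the origin recognition complex, was lower in H77L under DMSO (−0.59, adjusted p = 0.0047) and bortezomib (−0.43, adjusted p = 0.0263), the last lost without WT bortezomib replicate 3 or 5 or H77L bortezomib replicate 5 or 6 (adjusted p up to 0.0642). In C118F DMSO Orc6 passed with all 35 mice in 1 fit (0.0143) and without WT DMSO replicate 3 (0.0379), and in C118F bortezomib without WT bortezomib replicate 2 (0.0365), so no difference between the lines is shown. 4921524J17Rik was lower in H77L DMSO (−0.45, adjusted p = 0.0204), not without the filter (0.0529). When the mouse number was added to the model, it was not called there (0.139) but was lower in C118F DMSO (0.0454), H77L bortezomib (0.00504) and C118F bortezomib (0.0288). Without WT bortezomib replicate 1, 4921524J17Rik was also lower in H77L bortezomib (limma, adjusted p = 0.0255).

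Fzd2, a Wnt receptor, lies on the opposite strand with its end 8.5 kb from the end of 2810433D01Rik, tail to tail. It stood at 183, 196 and 243 TPM in WT under DMSO, 95.9, 113 and 121 TPM in H77L, and 63.4, 119 and 147 TPM in C118F, with no overlap. On bortezomib it stood at 166, 217 and 278 TPM in WT, 112, 124 and 139 TPM in H77L and 82.4, 101, 118.2, 120 and 148 TPM in C118F. The difference from WT lay between −0.83 and −0.97 in the 4 comparisons, with adjusted p of 2.97e-06, 0.00147, 4.02e-05 and 0.00028. The neighbouring coding genes Gpatch8 and Ccdc43 passed in none, although without WT bortezomib replicate 2 Ccdc43 was lower on bortezomib in H77L (adjusted p = 0.0441) and C118F (0.0345). Gm11636, an lncRNA gene 57 bases from 2810433D01Rik on the same strand, averaged 1.43 TPM in WT DMSO, 0.220 in H77L DMSO and 0.0761 in C118F DMSO.

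Camk2d, the delta subunit of calcium/calmodulin-dependent kinase II, holds Gm15551 on its opposite strand. Here too, reads from unspliced RNA of the host cannot be told apart from the lncRNA without strand. Camk2d averaged 15.7 ± 1.56 TPM in WT, 21.4 ± 1.18 in H77L and 20.1 ± 5.09 in C118F under DMSO (SD, n = 6 each), and 16.3 ± 2.04, 18.1 ± 1.96 and 21.2 ± 4.24 TPM on bortezomib. The host gene was thus higher in H77L DMSO (0.43, adjusted p = 0.0026), where the lncRNA inside it was low, and it did not pass in the other 3 (adjusted p = 0.162, 0.434 and 0.111). In C118F on bortezomib it passed without C118F bortezomib replicate 2 (adjusted p = 0.0428) and with voom on all libraries (0.0363).

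The remaining loci had no neighbour that was lower in both lines as fitted. Next to Gm28707, the zinc finger gene Hivep1 passed in none of the 4 comparisons. Beyond Gm47805, Jarid2, a cofactor of Polycomb repressive complex 2, passed in none, but was lower in H77L bortezomib without WT bortezomib replicate 1 (adjusted p = 0.0368) and in C118F DMSO with the mouse number in the model (0.0392). Cd83, an immune cell surface protein gene 819 kb away, was higher under DMSO by 1.31 in H77L (adjusted p = 0.00161) and 1.54 in C118F (0.000307). Under DMSO it passed the filter through the knock-in mice alone. On bortezomib Cd83 differed by 0.31 in H77L (0.581) and was higher by 1.15 in C118F (0.0258), a call lost without WT bortezomib replicate 4 (0.0572) or C118F bortezomib replicate 5 (0.0701), without the filter (0.0823), with a pseudocount of 0.1 (0.0696) and with the mouse number in the model (0.235). The last also ended the Cd83 call in H77L DMSO (0.0749). Next to Gm13749, the transcription factor gene Klf7 and the mitochondrial RNA-binding protein gene Fastkd2 passed in none. Rragc, a GTPase of amino acid sensing 631.7 kb from 4933407E24Rik, was higher in H77L DMSO (0.43, adjusted p = 0.00115) and C118F DMSO (0.36, adjusted p = 0.0405), the latter lost without WT DMSO replicate 1, 4, 5 or 6 or C118F DMSO replicate 2, 5 or 6 (adjusted p up to 0.0911), without the filter (0.0744), without the trend (0.0626) and with the mouse number in the model (0.21, adjusted p = 0.214). Arsj, Ank2, Adtrp, Pou3f1 and Meioc were too low to be tested.

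**Figure D2:**
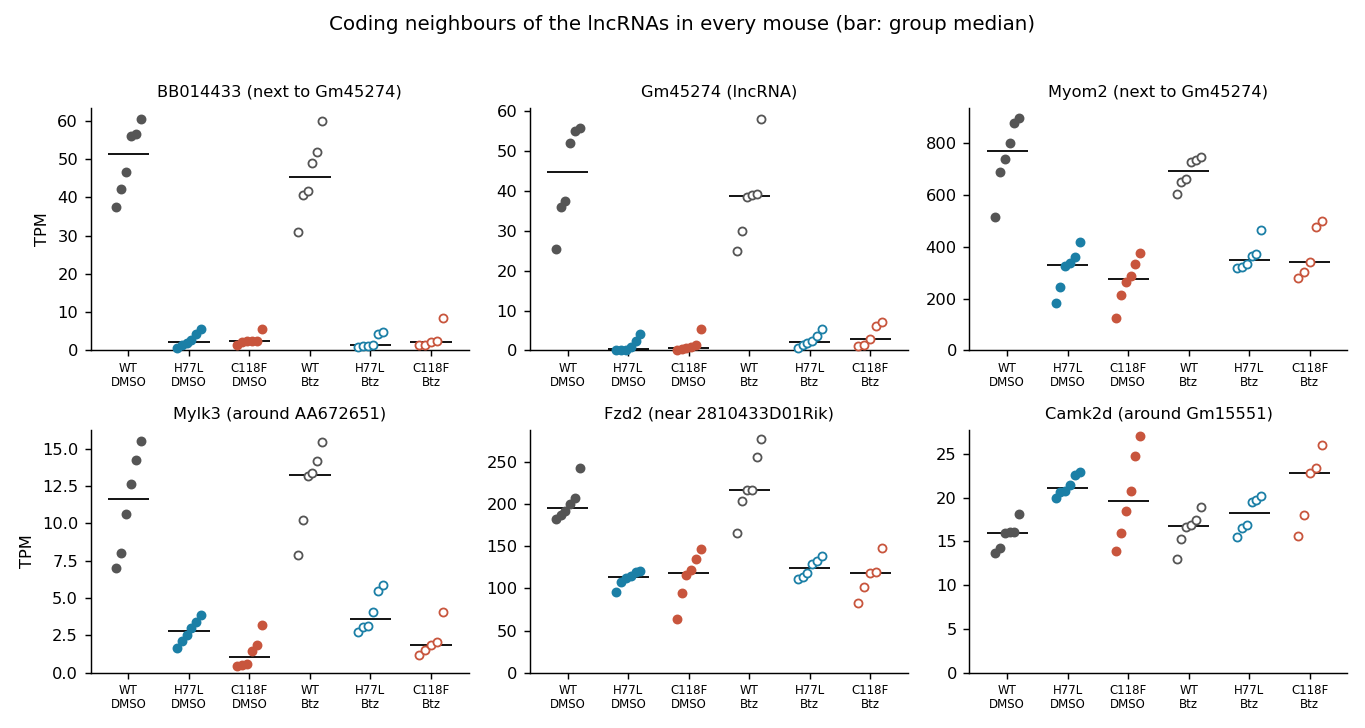
Level in TPM (vertical axis, linear, own scale per panel) of Gm45274 and of 5 coding neighbours of the lncRNAs in each mouse, with filled points for DMSO, open points for bortezomib, mice sorted by level within a group, and a bar at each group's median. BB014433 has its WT mice apart from both lines as Gm45274 does, Mylk3 and Fzd2 are lower in both lines to a smaller extent, and Camk2d, which holds Gm15551, is not lower.

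**Figure D3:**
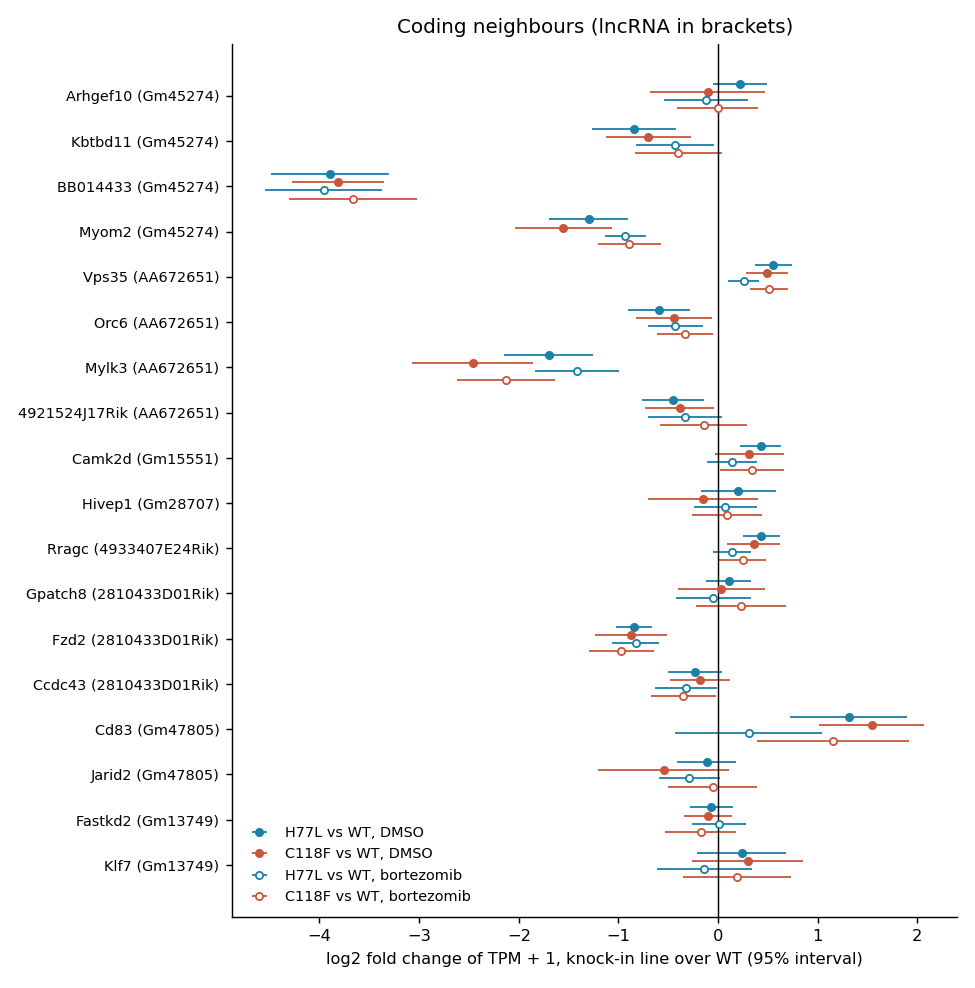
Log2 difference from WT on the log2(TPM + 1) scale (horizontal axis) for the tested coding neighbours in the 4 comparisons against WT, with lines for 95% intervals, filled points for DMSO and open points for bortezomib. BB014433 lies furthest from 0 in all 4, between −3.66 and −3.96, followed by Mylk3, and the other tested neighbours lie closer to 0 on both sides of it.

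The levels were also compared across all 35 mice, as a description, because mice of a group share the genotype and treatment that set most of the spread. On the log2(TPM + 1) scale, Pearson's r between pairs of the 8 lncRNAs ranged from 0.367 to 0.871 over 28 pairs, with a median of 0.704. Once the group means were taken out, it ranged from −0.614 to 0.414 with a median of 0.0229. The likeness between groups follows from the choice of lncRNAs that were lower in both lines. The values within groups rest partly on lncRNAs at 0 in most or all knock-in mice, such as AA672651 and Gm47805. Gm45274 and BB014433 gave r = 0.911, and 0.31 with the group means removed.

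Of 12122 genes with a mean above 1 TPM, the 3 most like each lncRNA over the 35 mice were then listed. For Gm45274 they were St6galnac6, a sialyltransferase (r = 0.938), the potassium channel subunit Kcng2 (0.933) and Lyrm9 (0.932). For 2810433D01Rik they were Fam81a (0.949), the tight junction gene Cldn5 (0.945) and the sorting nexin Snx31 (0.941). Nxph3, a neurexophilin, was among the 3 for AA672651 (0.886), Gm15551 (0.859) and 4933407E24Rik (0.910). The others for AA672651 were Rassf2 (0.891) and the retinoic acid hydroxylase Cyp26a1 (0.889), for Gm15551 Trabd2b (0.860) and Wsb2 (0.840), and for 4933407E24Rik the mitochondrial topoisomerase Top1mt (0.914) and the adhesion protein Nectin4 (0.910).

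For Gm28707 they were Ppp4c, a phosphatase subunit (0.864), Lsm12 (0.856) and the ribosomal protein gene Rpl13 (0.853), with r = 0.701, 0.732 and 0.669 once the group means were taken out. For the genes listed for the other 7 lncRNAs that value lay between 0.154 (Wsb2 with Gm15551) and 0.631 (Zfp85 with Gm13749). Gm28707 was the lncRNA with the strongest relation to Lmx1b, r = −0.76 over all mice and −0.733 within groups, while the other 7 had r between −0.481 and −0.273 with Lmx1b over all mice. For Gm47805 the list was Gm32342 (0.846), Creg2 (0.830) and Wsb2 (0.809), and for Gm13749 it was Golga7 (0.835), the vesicle protein gene Vamp3 (0.797) and Zfp85 (0.796).

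Among all annotated lncRNA genes that could be tested, more were lower than higher in the knock-in lines. Under DMSO 200 of 534 (37.5%) were lower and 46 (8.61%) higher in H77L, and 151 of 537 (28.1%) lower and 40 (7.45%) higher in C118F. On bortezomib 114 of 510 (22.4%) were lower and 40 (7.84%) higher in H77L, and 138 of 513 (26.9%) lower and 48 (9.36%) higher in C118F. Coding genes were nearer to balance, with 21.6% lower and 23.1% higher in H77L DMSO, 16% and 14.1% in C118F DMSO, 10.4% and 12.8% in H77L bortezomib, and 11.6% and 15.4% in C118F bortezomib. The 8 lncRNAs were part of these counts, and the difference between the classes was not tested.

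**Figure D4:**
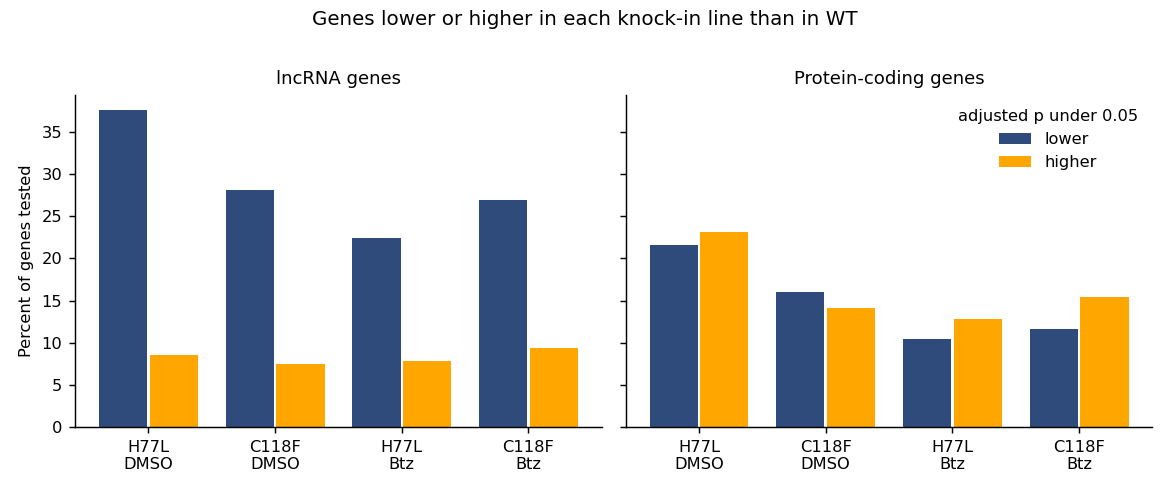
Percent of tested genes (vertical axis, from 0) that were lower or higher than in WT at an adjusted p under 0.05, for lncRNA and protein-coding genes in the 4 comparisons. Among lncRNA genes the lower share exceeds the higher share in all 4, at most 37.5% against 8.61% in H77L DMSO, whereas the shares of coding genes are close to each other.

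Of a list of well known lncRNAs, 46 of 47 were in the table. Of those tested, 9 of 21 were lower and 1 higher in H77L DMSO, 7 of 20 lower and 1 higher in C118F DMSO, 6 of 19 lower and 0 higher in H77L bortezomib, and 5 of 19 lower and 1 higher in C118F bortezomib. Of all lncRNA genes tested, 37.5%, 28.1%, 22.4% and 26.9% were lower in the same order. With the mouse number in the model, 5 of the list in place of 10 passed in either direction in H77L DMSO. The median log2 difference of the list was −0.32, −0.23, −0.28 and −0.25 in these comparisons, where that of all genes was −0.01, −0.06, −0.01 and 0.003. Most of all genes tested are coding, and the median of the lncRNA genes alone was not computed, so the list is not shown to differ from other lncRNAs. Wt1os, the antisense RNA of the podocyte transcription factor gene Wt1, was lower by −1.03 in H77L DMSO and −1.14 in C118F DMSO (adjusted p = 1.16e-05 and 0.000343). The small nucleolar RNA host gene Snhg8 was at −1.05 in both (0.000537 and 0.0162), Oip5os1, also known as Cyrano, at −0.99 and −1.04 (3.77e-06 and 9.53e-07), and Hotairm1, from the HoxA cluster, at −0.91 and −0.82 (0.000299 and 0.00651). None of these was as far from WT as Gm45274, which was picked for being lower, so nothing is read from that order.

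Of the LMX1B complex, the factor with its LIM cofactors and related LIM proteins, 7 genes were tested under DMSO. In H77L 2 were lower (Lmo4 and Ldb1) and 1 higher (Lmx1b), and in C118F 2 were lower (Lmo4 and Ssbp3) and 0 higher, 3 and 2 of 7 where 44.8% and 30.4% of all genes passed in either direction. Lmo4, a LIM-only protein that competes for LDB1, differed from WT by −1.47 in H77L and −1.24 in C118F (adjusted p = 7.24e-07 and 2.68e-05), from 40.6 ± 8.58 TPM in WT to 13.8 ± 1.12 and 16.5 ± 2.66 TPM (SD, n = 6). Of 15 podocyte transcription factor genes, 5 were lower and 3 higher in each line under DMSO, 8 of 15 beside the same shares. Foxc2, a forkhead factor, was at −1.02 and −1.17 (adjusted p = 0.00504 and 0.00179), Klf4 at 2.28 and 2.47 (0.00158 and 0.00282) and Sox4 at 2.19 and 2.12 (2.69e-05 and 0.000112).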

How the data were processed

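RNA of sorted podocytes of 35 mice was reverse-transcribed from poly(A) tails, and the authors sequenced the libraries from 1 end. They trimmed the reads with Trim Galore 0.6.7, aligned them to GRCm39 with STAR, placing a read that matched several loci at 1 of them at random, and counted them per gene with featureCounts 1.6.3. The deposited values are TPM, which sum to 1000000 per mouse. The step from counts to TPM and the strand setting are not given in the sources used here, and the methods name protein-coding genes although lncRNA genes are in the table. Random placement can move reads between near-identical copies.

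Values were fitted as log2(TPM + 1) with limma 3.58.1 (lmFit, eBayes with an intensity trend) in R 4.3.3, on the mice of the groups compared, for genes above 1 TPM in every mouse of at least 1 of these groups, with Benjamini-Hochberg adjustment over all genes tested. The fit was tested on simulated data. The study's own test, DESeq2, needs counts and was not run on TPM. Whole reads were recovered from the TPM steps for 99.97% of 23943 genes (within 0.001 reads), at the annotated length for 4492 genes and at a searched length for 19444, and refitted with limma voom, an alternative added after the data were seen. Other alternatives were the pseudocount, the filter, the samples fitted, the mouse number as a covariate, rescaling by median ratios, the trend and leaving out each mouse. Genes were annotated with GENCODE vM39, in which 516 identifiers were not found. Named are the 8 lncRNAs, Lmx1b, neighbours, the 3 genes most like each lncRNA, and at most 4 members of each list that passed in both lines under DMSO. Some list members that did not pass in both lines, or were not tested, are named as well. The members and lists were chosen with earlier results of these data known. Mice are numbered in accession order. Some genes of the marker and transcription factor lists are not reported here.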

Additional observations from a re-analysis of the deposited data

Results flagged for a closer look

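In groups of 5 or 6 mice, the gap of the highest or lowest mouse to the next was set against the range of the group. Of 158 groups over 27 genes, 24 had a mouse that stood apart. The chance rate of this rule, about 1 in 20 groups, assumes normally distributed values, and levels near 0 are not. Flagged mice included AA672651 in C118F bortezomib with 2 reads and Gm47805 in H77L DMSO with 4, where all other mice were at 0. No excess is therefore read from the number. No explanation was tested. Levels are in TPM, with the nearest mouse in brackets.

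Among the lncRNAs, the highest C118F DMSO mouse stood apart for Gm45274 at 5.268 (1.437) and Gm15551 at 4.062 (0), and for Gm13749 at 1.096 (0). AA672651 had a high mouse in WT DMSO at 15.04 (6.097), in WT bortezomib at 11.47 (3.521) and in C118F bortezomib at 2.791 (0). Gm15551 had one in WT bortezomib at 12.34 (4.593), and Gm28707 in C118F bortezomib at 6.231 (1.494). In H77L, 4933407E24Rik had a high mouse under DMSO at 1.212 (0.3114), and Gm47805 under DMSO at 1.812 (0) and bortezomib at 2.167 (0.4688). Gm13749 had a low mouse in WT bortezomib at 0 (0.9838).

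Among the coding genes, Lmx1b had a high mouse in H77L bortezomib at 160.6 (105.6). Cd83 and BB014433 had a high mouse in C118F bortezomib, at 8.816 (4.245) and 8.435 (2.357), and BB014433 another in C118F DMSO at 5.57 (2.548). Myom2 had a high mouse in H77L bortezomib at 464.3 (371.2), and Hivep1 in WT DMSO at 51.74 (33.39). Klf7 had a high mouse in H77L DMSO at 22.26 (13.75) and WT bortezomib at 31.54 (14.69), and a low one in H77L bortezomib at 9.691 (12.24). Fastkd2 had a low mouse in WT bortezomib at 17.19 (26.0). Vps35 had a low mouse in WT DMSO at 107.6 (128.3) and a high one in WT bortezomib at 151.2 (138.4).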

How the results depend on the processing

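No called result reversed its direction under the alternatives run. Some values that passed no test changed sign, among them Gm45274 in C118F against H77L on bortezomib (−0.31 to 0.54), 2810433D01Rik in bortezomib against DMSO in C118F (−0.23 to 0.18) and its response of C118F minus WT (−0.01 to 0.23), and Arhgef10, Fastkd2, Gpatch8, Hivep1, Jarid2 and Klf7 in at least 1 comparison with WT. The counts of the 8 lncRNAs lower than WT at an adjusted p under 0.05 stayed within 1.5 times. Under DMSO these counts follow from the choice of the genes, and on bortezomib they are descriptions, so nothing is read from their steadiness. No paired analysis was possible because the labels give the groups no shared replicate numbers. Few reads lie behind most of the lncRNAs, so small changes in level were not detectable.

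At the study cutoffs, the lncRNAs lower in C118F DMSO numbered 4 without the filter and 3 when the mouse number was added to the model (7 as fitted), and those in H77L bortezomib 2 with a pseudocount of 0.1 and 1 to 2 with each mouse left out (1 as fitted, 2 without WT bortezomib replicate 2). The lncRNAs were picked for being lower than the controls in both lines, so nothing is read from the C118F DMSO counts or their shifts. The H77L bortezomib counts are descriptions, since those mice may have had a part in the choice. The causes of the shifts were not tested. For bortezomib against DMSO in H77L, the count was 0 in place of 1 without the filter, with a mean above 0.5 TPM, with all 35 mice in 1 fit, without the trend and with voom, and 0 to 1 with each mouse left out. For C118F against H77L on bortezomib it was 0 in place of 1 without the filter and with the mouse number, and 0 to 1 with each mouse left out. For the response of H77L minus WT it was 0 to 1 with each mouse left out.

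With a window of 500 kb, in which more genes are tested, the neighbours called were 35 of 70 in H77L DMSO, 25 of 70 in C118F DMSO, 21 of 69 in H77L bortezomib and 19 of 70 in C118F bortezomib, where 44.8%, 30.4%, 23.6% and 27.5% of all genes tested passed. The other lncRNA genes lower in both lines numbered 4 with a pseudocount of 0.1, 1 without the filter, 1 with the mouse number and 1 to 3 with each mouse left out (2 as fitted). Of the well known lncRNAs, 5 passed in H77L DMSO with the mouse number (10 as fitted). Of the LMX1B complex, 1 passed in C118F DMSO after rescaling by median ratios (1 to 3 with each mouse left out), 1 in H77L bortezomib without the filter (1 to 2), and 2 in C118F bortezomib with all 35 mice in 1 fit and with voom (1 to 2). Single genes lost their call in 44 fits and gained one in 18, and 2847 fitted values stayed on their side of the threshold, called or not.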
